A study of Mus musculus with 18 samples.

Results

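The effect of PCN on macrophages with floxed PXR alleles was measured in 6 of the 18 RNA sequencing libraries of the series, 3 from cells given PCN and 3 from cells given its solvent DMSO. They were chosen by their labels alone, by genotype and by agent. All genes of the table entered the filter. Of 21831 genes, 3287 were at 0 in all 18 libraries, and 13409 passed a filter on low counts and were tested. The cells were peritoneal macrophages of 6-week-old C57BL/6 mice of the genotype PXRF/FLDLR-/-, which carry loxP sites in the PXR gene, on the knockout background that the name ends with. They had been injected in the abdomen with 1 mL of 3% thioglycollate, which brings macrophages there by irritation, and the cells were harvested 3 days later. The cells were left to attach for 4 h and then cultured for 12 h with 20 µM PCN or with DMSO. The other genotype, PXRΔMyeLDLR-/-, lacks PXR in myeloid cells on the same background, and it has 6 DMSO and 6 PCN libraries. The labels name neither the Cre line behind that deletion nor any animal or culture behind a library, so each p-value reflects only how much these libraries varied, and that variation could be technical.

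PCN, pregnenolone carbonitrile, is a synthetic steroid and the standard ligand of the rodent pregnane X receptor (PXR, gene Nr1i2). PXR pairs with RXR on DNA and is best known in liver and intestine, where it induces cytochromes P450, conjugating enzymes and drug efflux pumps. Macrophages take up lipoproteins, store the cholesterol as esters, pass it to carriers outside the cell through LXR-controlled exporters, sense microbes and clear dying cells. Cholesterol synthesis genes are driven by SREBP2, LXR responds to oxidised sterols, PPARs respond to fatty acids, and the integrated stress response works through the transcription factors ATF4, ATF3 and CHOP.

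The promoters of 5 genes that rose under PCN are shown because 3 of them hold the cyclic AMP response element (CRE, TGACGTCA) and 2 hold the composite site read by C/EBP and ATF factors (TGATGCAA). They are a selection. Among the genes of the naming rule with an entry, the CRE was in 3 of 64 that rose and in 2 of 84 that fell, H2-Aa among these. The composite site was in 2 and 0. Each is the 250 bases before the RefSeq start of the gene on build GRCm38.p6, read 5′ to 3′ along the gene, with the element in capitals. Ppp1r15a (chr7:45526269-45526518, minus strand) has the CRE 12 bases before its start, Dusp1 (chr17:26508473-26508722, minus strand) has it 143 bases before, and Dusp8 (chr7:142095285-142095534, minus strand) has it at 107 and at 63 bases. Atf3 (chr1:191183334-191183583, minus strand) has the composite site 110 bases before its start on the other strand, and Slc7a11 (chr3:50443614-50443863, minus strand) has it at 66 bases and, on the other strand, at 47 bases.
Ppp1r15a: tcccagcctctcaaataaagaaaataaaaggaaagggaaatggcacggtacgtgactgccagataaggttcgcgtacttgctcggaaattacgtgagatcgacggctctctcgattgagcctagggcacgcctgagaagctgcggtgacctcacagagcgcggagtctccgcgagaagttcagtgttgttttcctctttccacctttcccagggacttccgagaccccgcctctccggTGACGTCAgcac
Dusp1: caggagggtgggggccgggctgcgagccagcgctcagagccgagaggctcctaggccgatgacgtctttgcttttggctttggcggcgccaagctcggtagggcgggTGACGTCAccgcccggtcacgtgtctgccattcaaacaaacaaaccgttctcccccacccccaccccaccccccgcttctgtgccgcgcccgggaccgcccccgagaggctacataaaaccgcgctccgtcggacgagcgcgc
Dusp8: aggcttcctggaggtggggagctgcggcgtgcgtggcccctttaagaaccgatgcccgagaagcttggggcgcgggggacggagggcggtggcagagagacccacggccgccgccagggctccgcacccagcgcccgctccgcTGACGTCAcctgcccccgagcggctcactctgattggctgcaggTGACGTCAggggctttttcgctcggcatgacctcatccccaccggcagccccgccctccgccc
Atf3: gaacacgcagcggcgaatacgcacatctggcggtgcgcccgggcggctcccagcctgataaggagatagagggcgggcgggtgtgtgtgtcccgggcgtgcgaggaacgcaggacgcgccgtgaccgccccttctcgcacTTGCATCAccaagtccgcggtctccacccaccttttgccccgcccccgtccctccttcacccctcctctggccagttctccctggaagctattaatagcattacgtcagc
Slc7a11: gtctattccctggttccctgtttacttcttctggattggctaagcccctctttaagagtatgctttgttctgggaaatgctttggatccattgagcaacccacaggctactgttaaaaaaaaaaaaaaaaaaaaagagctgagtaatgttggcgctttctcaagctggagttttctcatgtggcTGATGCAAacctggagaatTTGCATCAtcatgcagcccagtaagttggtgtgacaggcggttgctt
Over the 10392 tested genes with such an entry, 12 motifs chosen after the values were seen were searched on both strands. The CRE was found in 2.65% of all these promoters, in 5.41% of those of genes that rose and in 0.958% of those of genes that fell. The composite site was found in 0.568%, 0.971% and 0.958%, so its shares among rises and falls were alike. The E-box CACGTG was found in 8.16%, 12.1% and 6.98%, and TCACGTGA, which contains it, in 1.501%, 2.77% and 0.958%. The interferon response core GAAANNGAA stood in 6.51% of all, 6.24% of the rises and 9.30% of the falls. Rises were commoner among abundant genes, so shares were also taken among genes with a mean of at least 16 CPM. There, in the same order, the CRE was in 3.15%, 5.10% and 0.670% and the E-box in 9.90%, 12.7% and 6.70%. TCACGTGA was in 2.12%, 3.03% and 0.893%, and the interferon core in 5.99%, 5.89% and 7.37%. The repeats that PXR and RXR bind, DR3, DR4 and ER6, were found in 2, 3 and 3 tested promoters, and in 0 promoters of genes that rose or fell. With so few matches in all, this 0 cannot tell whether the repeats are rarer near called genes. A match is a description of these letters in this window.

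The 6 libraries held between 24213247 and 27502208 expected counts, and 15075 to 15383 genes had a count in each. A count of 3, used as the floor for genes at 0, came to 0.109 to 0.124 CPM (counts per 1000000 counts of the library). Libraries of 1 group differed by more than sampling noise (chi-square for each gene 4.56 to 10.9), so none was counted as a repeat of another. On the first principal component of these 6 libraries, which held 29.0% of the variance, the DMSO libraries lay between -32.3 and -15.1 and the PCN libraries between 14.3 and 33.0. The next component set PCN 2 (29.0) against PCN 3 (-33.1), and the deviation of PCN 2 from its group followed exon length (Spearman correlation 0.40 over 10098 genes, a description), while that for the PCN effect itself was 0.07. Replicate numbers only name libraries, and values below are given in their order. The deletion could not be checked from the reads: Nr1i2 had 2 counts over the 3 DMSO and 1 count over the 3 PCN libraries, which is at the limit of detection in floxed cells too. Macrophage genes were high, as the label has it: the scavenger receptor gene Cd36 stood at 2879 ± 41.3 CPM under DMSO (mean ± SD, n = 3, as for all such values below) and Adgre1, which encodes F4/80, at 125 ± 2.11 CPM.

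PCN moved many genes by a little and few by much. Rises were led by the activin subunit Inhba, the stress genes Ppp1r15a and Gdf15 and the phosphatase Dusp1, and falls by Txnip, the interferon-induced Ly6e, the lipoprotein lipase inhibitor Angptl4 and the receptors P2ry6, C5ar1 and Tlr8. Of the 13409 genes, 1851 (13.8%) were called at a Benjamini-Hochberg adjusted p under 0.05 by edgeR's quasi-likelihood test. The rises numbered 915 (6.82% of the genes tested) and the falls 936 (6.98%). Rises made up 49.4% of the calls with TMM scaling and 38.2% with upper-quartile scaling. The median fold was 1.25 among the rises and 1.35 among the falls. At least 1.5-fold changes were seen for 94 rises and 299 falls, and at least 2-fold changes for 25 rises and 93 falls. The 3 PCN libraries lay wholly above or below the 3 DMSO libraries for 4476 genes (33.4%), and for 1824 of the 1851 called genes. Leaving out DMSO 1 brought the calls to 1201 and the rises to 522, and the rises were 568 without DMSO 3, 582 without PCN 2 and 564 without PCN 3. Of the called genes, 405 rises and 481 falls were called whichever of the 6 libraries was left out. Beside many of the lists below the number of such calls is given, as those called in every such fit. The share of genes called rose with abundance, from 2.44% of genes under 1 CPM to 30.9% of those at 256 CPM or more. Rises were 16.5% of the calls between 1 and 4 CPM and 65.2% between 64 and 256 CPM.

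**Figure D1:**
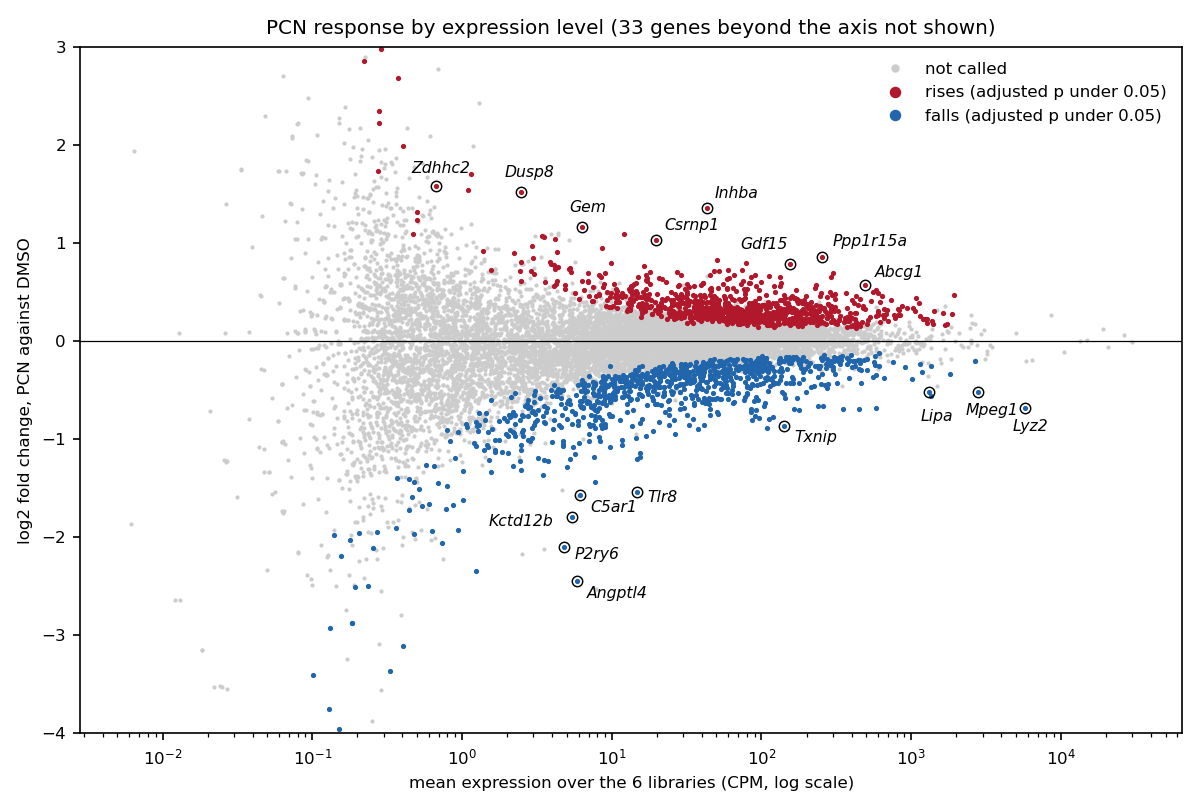
Log2 fold change of PCN against DMSO (vertical) against the mean expression of each tested gene over the 6 libraries (horizontal, CPM, log scale), with called rises in red, called falls in blue and genes not called in grey. Of the 13409 genes, 33 lie beyond the axis, 9 of them called; falls outnumber rises among weakly expressed genes and rises outnumber falls between 64 and 256 CPM.

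Drug metabolism genes showed 1 rise, in Por, and several falls. Cyp3a11, the main PXR target in mouse liver, had 0 counts in all 6 libraries. Of 39 listed genes of xenobiotic metabolism and transport, 24 were tested, 1 rose and 5 fell (1 and 4 in every such fit), with a median log2 fold change of -0.13 against 0.01 over all tested genes. Por, which passes electrons to cytochromes P450, stood at 610.03, 637 and 623 CPM under DMSO and at 755, 752 and 789.9 under PCN (log2 fold change 0.32, SE 0.05, adjusted p = 7.6e-05). All 3 PCN libraries were above all 3 DMSO libraries. The glucuronosyltransferase Ugt1a7c went from 177, 167 and 172 CPM to 117, 109 and 113 (log2 fold change -0.58, SE 0.06, adjusted p = 9.5e-07), with no overlap between the groups. Ugt1a genes share exons, so the split of their reads is uncertain. The drug pump Abcb1b fell from 39.6 ± 1.65 to 29.1 ± 1.12 CPM and the organic anion pump Abcc3 from 15.4 ± 1.82 to 10.3 ± 1.03. Gstm1, a glutathione transferase, fell by 0.21 on the log2 scale. Abcb1a, the pump most often followed as a PXR target, held 11.2 ± 1.84 CPM under DMSO and 9.47 ± 1.11 under PCN, and the groups overlapped (log2 fold change -0.22, SE 0.15, adjusted p = 0.38).

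Among 38 tested nuclear receptors and their partners, 4 rose and 1 fell, near the background. Rxrb, a partner of PXR, LXR and PPARs, rose from 76.6 ± 1.51 to 93.4 ± 0.331 CPM (log2 fold change 0.31, SE 0.06, adjusted p = 0.00062), and Ppard, the fatty acid receptor PPARδ, from 49.1 ± 1.67 to 65.5 ± 5.17 (log2 fold change 0.44, SE 0.09, adjusted p = 0.0023). These 2 were called in every such fit. The call of Pparg (adjusted p = 0.012) was lost without DMSO 1 (adjusted p = 0.059) or PCN 2 (adjusted p = 0.055), and without either library 2 rises were left. Nr1h3, which encodes LXRα, fell from 51.6 ± 2.64 to 39.6 ± 3.07 CPM (log2 fold change -0.36, SE 0.09, adjusted p = 0.0094), while Nr1h2, which encodes LXRβ, stood at 103 ± 1.98 and 100.1 ± 0.959 CPM and was not called. The glucocorticoid receptor gene Nr3c1 was at 80.5 ± 3.42 and 78.4 ± 1.30 CPM (log2 fold change -0.01, SE 0.08, adjusted p = 0.94).

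Several genes of cholesterol synthesis fell, while several genes of cholesterol export rose. Of 27 tested genes of sterol synthesis and SREBP2 control, 8 fell and 1 rose (7 and 0 in every such fit; median -0.21 against 0.01). Idi1, the isoprenoid isomerase, had 10.3, 8.84 and 9.86 CPM under DMSO and 5.95, 4.95 and 4.87 under PCN (log2 fold change -0.86, SE 0.14, adjusted p = 0.00017). Stard4, a carrier of cholesterol inside the cell, had 4.83, 5.64 and 5.31 and 1.77, 2.11 and 2.76 CPM (log2 fold change -1.22, SE 0.16, adjusted p = 1.2e-05). Neither gene's groups overlapped. Dhcr7 (log2 fold change -0.89, SE 0.19, adjusted p = 0.0023), Fdps (log2 fold change -0.55, SE 0.13, adjusted p = 0.0063) and Cyp51 (log2 fold change -0.33, SE 0.08, adjusted p = 0.008), further enzymes of the pathway, also fell. The regulator genes Srebf2 (log2 fold change -0.21, SE 0.09, adjusted p = 0.14), Srebf1 (log2 fold change 0.11, SE 0.07, adjusted p = 0.35) and Insig1 (log2 fold change -0.18, SE 0.09, adjusted p = 0.21) and the synthesis genes Hmgcs1 (log2 fold change -0.06, SE 0.06, adjusted p = 0.52) and Sqle (log2 fold change -0.25, SE 0.11, adjusted p = 0.14) were not called. Sqle was called a fall without DMSO 3 (adjusted p = 0.019). Srebf2 was so called without PCN 2 (adjusted p = 0.042) and from the 6 libraries alone (adjusted p = 0.035).

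Of 22 tested LXR targets and efflux genes, 6 rose and 4 fell (4 and 4 in every such fit; median -0.07). Abcg1, which exports cholesterol to lipoproteins, stood at 379, 417 and 393 CPM under DMSO and at 557, 622 and 562 under PCN (log2 fold change 0.57, SE 0.07, adjusted p = 1e-05; chromosome 17, 31057675 to 31117988). Mylip, a ubiquitin ligase gene that LXR induces, stood at 22.9, 23.2 and 21.97 and 35.6, 36.2 and 35.4 CPM (log2 fold change 0.68, SE 0.07, adjusted p = 1.1e-06). The lowest PCN library was above the highest DMSO library for both genes. Arl4c (log2 fold change 0.47, SE 0.06, adjusted p = 2.6e-05) and Rgcc (log2 fold change 0.68, SE 0.15, adjusted p = 0.0043) also rose. Abca1, the exporter to apolipoprotein A-I, stood at 64.2 ± 4.57 and 90.003 ± 7.76 CPM (log2 fold change 0.51, SE 0.14, adjusted p = 0.016), and its call was lost without DMSO 1 (adjusted p = 0.10), DMSO 3 (0.062) or PCN 2 (0.10). The falls were Abca9, the desaturase Scd2 (log2 fold change -0.64, SE 0.15, adjusted p = 0.0057), the lipase Lpl (log2 fold change -0.43, SE 0.09, adjusted p = 0.0021) and Nr1h3.

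Several fatty acid oxidation genes fell. Of 29 tested PPAR targets and oxidation enzymes, 12 fell and 0 rose (median -0.22), where 6.98% of all genes fell. Of these falls 8 were called in every such fit, and other methods gave up to 15. Angptl4, a PPAR target that inhibits lipoprotein lipase, stood at 9.98, 8.54 and 11.03 CPM under DMSO and at 0.629, 1.56 and 3.19 under PCN (log2 fold change -2.45, SE 0.33, adjusted p = 3e-05; chromosome 17, 33773750 to 33781830). PCN 3 was the highest of the PCN libraries, and without it the log2 fold change was -3.17. Cpt1a, the entry step of fatty acids into mitochondria, stood at 226, 219 and 224 and 135, 135 and 137 CPM (log2 fold change -0.70, SE 0.06, adjusted p = 6.8e-08). Acaa2, a thiolase of the oxidation cycle, fell from 49.4 ± 2.01 to 26.02 ± 2.84 CPM (log2 fold change -0.90, SE 0.09, adjusted p = 1.1e-06), and the uncoupling protein gene Ucp2 from 294 ± 8.68 to 182 ± 6.09 (log2 fold change -0.67, SE 0.06, adjusted p = 5e-07). For these 4 genes no PCN library reached the DMSO libraries. Hadh (log2 fold change -0.65, SE 0.12, adjusted p = 0.00089), Decr1 (log2 fold change -0.43, SE 0.09, adjusted p = 0.0032) and Slc25a20 (log2 fold change -0.38, SE 0.08, adjusted p = 0.0024), further steps of mitochondrial oxidation, also fell.

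Among 26 tested genes of lipid uptake and storage 7 fell and 3 rose (5 and 0 in every such fit; the rises were 1 without DMSO 2, DMSO 3, PCN 1 or PCN 2 and 0 without DMSO 1 or PCN 3). Lipa, the lysosomal lipase that frees cholesterol from lipoprotein esters, stood at 1596, 1554 and 1552 CPM under DMSO and 1089, 1056 and 1094 under PCN (log2 fold change -0.51, SE 0.05, adjusted p = 2.7e-07), and the HDL receptor gene Scarb1 fell from 44.6 ± 0.440 to 32.4 ± 1.66 (log2 fold change -0.44, SE 0.07, adjusted p = 0.00012). The scavenger receptor gene Cd36 stood at 2984 ± 96.5 CPM under PCN and was not called (log2 fold change 0.07, SE 0.07, adjusted p = 0.53). PCN 1 lay inside the DMSO range and the other 2 libraries above it. Txnip, which restrains glucose uptake and responds to glucose, stood at 191, 180.4 and 179.7 CPM under DMSO and at 99.4, 99.9 and 99.5 under PCN (log2 fold change -0.86, SE 0.06, adjusted p = 3.6e-09; chromosome 3, 96557957 to 96561883). The PCN libraries lay within 1 CPM of each other, far below the DMSO libraries. Glycolysis genes went both ways, with 5 rises and 5 falls of 30 (3 and 3 in every such fit). The glucose transporter gene Slc2a1 rose from 47.99 ± 6.18 to 74.1 ± 6.27 CPM (log2 fold change 0.65, SE 0.09, adjusted p = 5.4e-05) and the hexokinase gene Hk3 from 981 ± 26.5 to 1262 ± 28.3 (log2 fold change 0.39, SE 0.04, adjusted p = 2.1e-06), while the enolase gene Eno1, which has near-identical copies, fell from 309.8 ± 12.5 to 224 ± 6.06 (log2 fold change -0.44, SE 0.07, adjusted p = 0.00011). The rises were 3 without DMSO 3, and the falls were 3 without PCN 2.

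Several genes of the integrated stress response rose, with 12 rises and 6 falls (10 and 2 in every such fit) among 34 tested members of that response and of the unfolded protein response (median 0.10). Ppp1r15a encodes GADD34, which restores translation by bringing phosphatase to eIF2α, and stood at 182, 188 and 178 CPM under DMSO and at 329, 309.7 and 342 under PCN (log2 fold change 0.86, SE 0.06, adjusted p = 3.6e-09; chromosome 7, 45522916 to 45526268). Atf3, a transcription factor of the response, stood at 471, 492 and 495 and 665, 696 and 692 CPM (log2 fold change 0.52, SE 0.06, adjusted p = 2.4e-06). Slc7a11, which takes up cystine, stood at 76.6, 71.1 and 77.4 and 105, 111 and 112 CPM (log2 fold change 0.57, SE 0.09, adjusted p = 9.7e-05). In all 3 genes every PCN library was above every DMSO library; their promoters are those printed above. Cebpg (log2 fold change 0.32, SE 0.04, adjusted p = 3e-05) and the amino acid carrier subunit Slc3a2 (log2 fold change 0.33, SE 0.05, adjusted p = 0.00014) rose by less, as did Ddit3, which encodes CHOP (log2 fold change 0.51, SE 0.08, adjusted p = 0.0001), Nupr1 (log2 fold change 0.54, SE 0.09, adjusted p = 0.00027), Trib3 (log2 fold change 0.36, SE 0.05, adjusted p = 8.2e-05), Mthfd2 and Atf5. The serine synthesis genes Psat1 (log2 fold change -0.46, SE 0.07, adjusted p = 5.2e-05) and Phgdh (log2 fold change -0.39, SE 0.10, adjusted p = 0.012) fell, and the other 4 falls were genes of the endoplasmic reticulum. Without DMSO 2, DMSO 3, PCN 1 or PCN 2, 3 falls were left. Gdf15, a secreted stress factor, stood at 119.7, 113 and 113 CPM under DMSO and at 197, 198 and 193 under PCN (log2 fold change 0.79, SE 0.06, adjusted p = 8.9e-09; chromosome 8, 70629393 to 70632456). The lowest PCN library was above the highest DMSO library. Of 31 tested heat shock and chaperone genes 1 rose and 3 fell (0 and 2 in every such fit, median -0.01). The share called, 12.9%, was near the 13.8% over all tested genes. Among the falls was Hspa8, a constitutive chaperone gene with near-identical copies. It stood at 721, 729.9 and 728 CPM under DMSO and 446, 451 and 437 under PCN (log2 fold change -0.69, SE 0.06, adjusted p = 5.9e-08). Hsp90ab1 also fell (log2 fold change -0.21, SE 0.04, adjusted p = 0.0021).

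Early response genes and MAP kinase phosphatases went both ways, with rises in front. Of 36 tested immediate-early genes 12 rose and 4 fell (9 and 4 in every such fit; median 0.10), and of 25 MAP kinase pathway and feedback genes 6 rose and 5 fell (5 and 3 in every such fit; median 0.16), with 3 falls without DMSO 1, DMSO 2 or PCN 1. Dusp1, a phosphatase that turns off p38 and JNK, stood at 70.3, 68.8 and 71.2 CPM under DMSO and at 116, 109 and 106 under PCN (log2 fold change 0.68, SE 0.06, adjusted p = 9e-08). Dusp8, of the same family, stood at 1.30, 1.05 and 1.53 and 4.28, 4.04 and 2.67 CPM (log2 fold change 1.52, SE 0.25, adjusted p = 0.00018). Dusp6, which acts on ERK, went the other way, from 9.73, 9.76 and 9.27 to 6.88, 4.45 and 6.02 CPM (log2 fold change -0.71, SE 0.14, adjusted p = 0.0016). None of the 3 showed overlap between the groups. Csrnp1, an early response transcription factor, rose from 13.1 ± 0.988 to 26.4 ± 0.463 CPM (log2 fold change 1.03, SE 0.08, adjusted p = 4.8e-08), the small GTPase gene Gem from 3.93 ± 0.329 to 8.67 ± 1.08 (log2 fold change 1.16, SE 0.18, adjusted p = 0.00011), Myc from 29.04 ± 3.02 to 42.1 ± 2.14 (log2 fold change 0.56, SE 0.07, adjusted p = 2.1e-05) and the antiproliferative gene Btg1 from 468 ± 8.41 to 649.7 ± 5.08 (log2 fold change 0.50, SE 0.06, adjusted p = 4e-06). Klf2, a factor that restrains macrophage activation, fell from 22.9 ± 0.164 to 14.9 ± 0.574 CPM (log2 fold change -0.60, SE 0.08, adjusted p = 2.4e-05). Fos (log2 fold change -0.20, SE 0.09, adjusted p = 0.13), Jun (log2 fold change 0.05, SE 0.06, adjusted p = 0.65) and Egr1 (log2 fold change -0.21, SE 0.19, adjusted p = 0.56) were not called. The kinase gene Map2k6 had 17, 15 and 14 counts under DMSO and 0 in each PCN library, at least 5.11-fold lower against a floor of 3 counts per library, and the p38 gene Mapk14 fell (log2 fold change -0.29, SE 0.06, adjusted p = 0.002).

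Glucocorticoid-induced genes were examined because PCN is a steroid. Of 26 tested, 6 rose and 2 fell (4 and 1 in every such fit; median 0.09). Besides Dusp1, Sgk1 rose from 765 ± 12.9 to 968 ± 20.9 CPM (log2 fold change 0.36, SE 0.05, adjusted p = 4.6e-05), with Tgm2 (log2 fold change 0.38, SE 0.05, adjusted p = 2.3e-05) and Tnfaip3 (log2 fold change 0.34, SE 0.06, adjusted p = 0.00075). The glucocorticoid genes Fkbp5 at 7.91 ± 1.22 and 9.26 ± 0.457 CPM (log2 fold change 0.25, SE 0.16, adjusted p = 0.33) and Tsc22d3 at 225 ± 3.41 and 238 ± 12.4 CPM (log2 fold change 0.10, SE 0.06, adjusted p = 0.29), both strong responders in many cell types, were not called. Anxa1, which encodes an anti-inflammatory protein, fell (log2 fold change -0.36, SE 0.08, adjusted p = 0.0053), the fall that was left without DMSO 3 or PCN 2. Of 20 tested clock genes 6 rose and 1 fell (4 and 1 in every such fit; median 0.21). Arntl, which encodes the clock activator BMAL1, stood at 7.59, 8.40 and 9.09 CPM under DMSO and at 12.8, 13.1 and 11.03 under PCN (log2 fold change 0.58, SE 0.12, adjusted p = 0.002). Dbp, an output gene that BMAL1 activates, stood at 10.6, 9.33 and 9.96 and 6.74, 5.19 and 4.87 CPM (log2 fold change -0.80, SE 0.13, adjusted p = 0.00022). The groups were apart in both, in opposite directions. The repressors Cry1 (log2 fold change 0.43, SE 0.08, adjusted p = 0.00041) and Bhlhe41 (log2 fold change 0.39, SE 0.05, adjusted p = 2.5e-05) rose, as did the kinase gene Csnk1e. The call of Per1 (26.6 ± 1.18 and 37.1 ± 5.69 CPM, log2 fold change 0.50, SE 0.13, adjusted p = 0.01) was lost without DMSO 1 (adjusted p = 0.052), DMSO 3 (0.063) or PCN 2 (0.10). Nr1d1, the REV-ERBα gene, was not called (log2 fold change 0.25, SE 0.15, adjusted p = 0.33).

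Chemokines and cytokines showed a small set of rises. Ccl3, which recruits monocytes, stood at 57.7, 57.3 and 53.8 CPM under DMSO and at 91.95, 91.6 and 90.7 under PCN (log2 fold change 0.72, SE 0.07, adjusted p = 5e-07). Il1rn, the interleukin-1 receptor antagonist, stood at 52.4, 63.4 and 59.3 and 90.4, 108 and 102 CPM (log2 fold change 0.80, SE 0.12, adjusted p = 6.4e-05). Il1a, an agonist of the same receptor, stood at 40.8, 41.4 and 37.3 and 60.9, 70.3 and 61.9 CPM (log2 fold change 0.72, SE 0.09, adjusted p = 1.5e-05). In each the PCN libraries were all above the DMSO libraries. The macrophage growth factor gene Csf1 rose from 80.3 ± 2.56 to 114 ± 3.90 CPM (log2 fold change 0.52, SE 0.07, adjusted p = 1.6e-05) and Tnf from 11.2 ± 0.716 to 14.5 ± 0.9998 (log2 fold change 0.39, SE 0.09, adjusted p = 0.0067). Of 22 tested cytokines and receptors 4 rose and 2 fell, though the median was below 0 at -0.12, and of the falls only Il10ra (log2 fold change -0.54, SE 0.11, adjusted p = 0.0025) was left without DMSO 1, DMSO 3, PCN 1, PCN 2 or PCN 3. Il1b, Il10 and Nos2 were too low to test, with 28, 10 and 16 counts over the DMSO libraries and 17, 5 and 6 over the PCN libraries. Of 15 CC chemokines and receptors 4 rose and 3 fell (3 and 2 in every such fit; median 0.15). Ccl7 (log2 fold change 0.60, SE 0.14, adjusted p = 0.0052) and the receptor Ccr1 (log2 fold change 0.34, SE 0.07, adjusted p = 0.0026) rose with Ccl3 and Ccl2, the last losing its call without DMSO 2 (adjusted p = 0.051), and Ccl9 (log2 fold change -0.48, SE 0.10, adjusted p = 0.002) and Ccl6 fell.

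NF-κB subunits and feedback genes counted 8 rises and 2 falls of 26 (5 and 0 in every such fit; median 0.11), with 5 rises without DMSO 3 or PCN 2 and 0 falls without PCN 2. Nfkbib, an inhibitor of the pathway, rose from 52.5 ± 2.45 to 71.3 ± 3.35 CPM (log2 fold change 0.46, SE 0.08, adjusted p = 0.00024) and Tnfaip2 from 594 ± 14.2 to 706 ± 12.8 (log2 fold change 0.27, SE 0.04, adjusted p = 0.00018), and Irak2 and Relb were further rises beside Tnfaip3. The inhibitor gene Nfkbia was at 35.7 ± 1.52 and 40.4 ± 5.27 CPM and was not called (log2 fold change 0.20, SE 0.09, adjusted p = 0.16). Of 24 tested eicosanoid genes 6 fell and 2 rose (4 and 2 in every such fit; median -0.30). Cysltr1, a leukotriene receptor, went from 5.45, 4.41 and 5.06 to 2.12, 2.18 and 1.99 CPM (log2 fold change -1.22, SE 0.18, adjusted p = 6e-05), and Pla2g7, which breaks down platelet-activating factor, from 208 ± 4.81 to 138 ± 8.40 (log2 fold change -0.58, SE 0.07, adjusted p = 8.1e-06). Pla2g15 (log2 fold change -0.40, SE 0.06, adjusted p = 0.00018) and the thromboxane synthase gene Tbxas1 (log2 fold change -0.48, SE 0.09, adjusted p = 0.00099) also fell. The inducible cyclooxygenase gene Ptgs2 stood at 3.44, 3.41 and 3.05 CPM under DMSO and at 4.86, 5.39 and 6.19 under PCN (log2 fold change 0.75, SE 0.13, adjusted p = 0.00045), without overlap, and Ptgir rose by 0.20 on the log2 scale.

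Inhba had the largest called rise among genes with a mean of at least 4 CPM. It encodes the subunit that forms activin A, a TGF-β family ligand, and stood at 22.7, 25.4 and 25.2 CPM under DMSO and at 57.4, 70.2 and 57.4 under PCN (log2 fold change 1.36, SE 0.12, adjusted p = 1.5e-07; chromosome 13, 16011851 to 16031621). All 3 PCN libraries were more than 2-fold above the highest DMSO library. Of 32 tested genes of activin and TGF-β signalling 5 rose and 1 fell (3 and 0 in every such fit; median 0.05). The repressor Tgif1 (log2 fold change 0.29, SE 0.05, adjusted p = 0.00017) and the ligase Smurf1 (log2 fold change 0.43, SE 0.08, adjusted p = 0.00059) rose, and Fstl1, which encodes a follistatin-like protein, lost its call without DMSO 1 (adjusted p = 0.065) or PCN 3 (0.056). Without DMSO 1, 3 rises were left, and the single fall was lost whichever library was left out. Of 26 growth factor and related genes 6 rose and 4 fell (3 and 3 in every such fit), with a median just below 0 at -0.03. The urokinase gene Plau rose from 59.4 ± 2.68 to 87.7 ± 4.99 CPM (log2 fold change 0.59, SE 0.07, adjusted p = 6.6e-06) and Vegfa from 96.3 ± 2.14 to 119 ± 3.68 (log2 fold change 0.32, SE 0.06, adjusted p = 0.0008), while Igf1 fell from 62.5 ± 2.53 to 47.5 ± 2.56 (log2 fold change -0.37, SE 0.08, adjusted p = 0.0025).

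**Figure D2:**
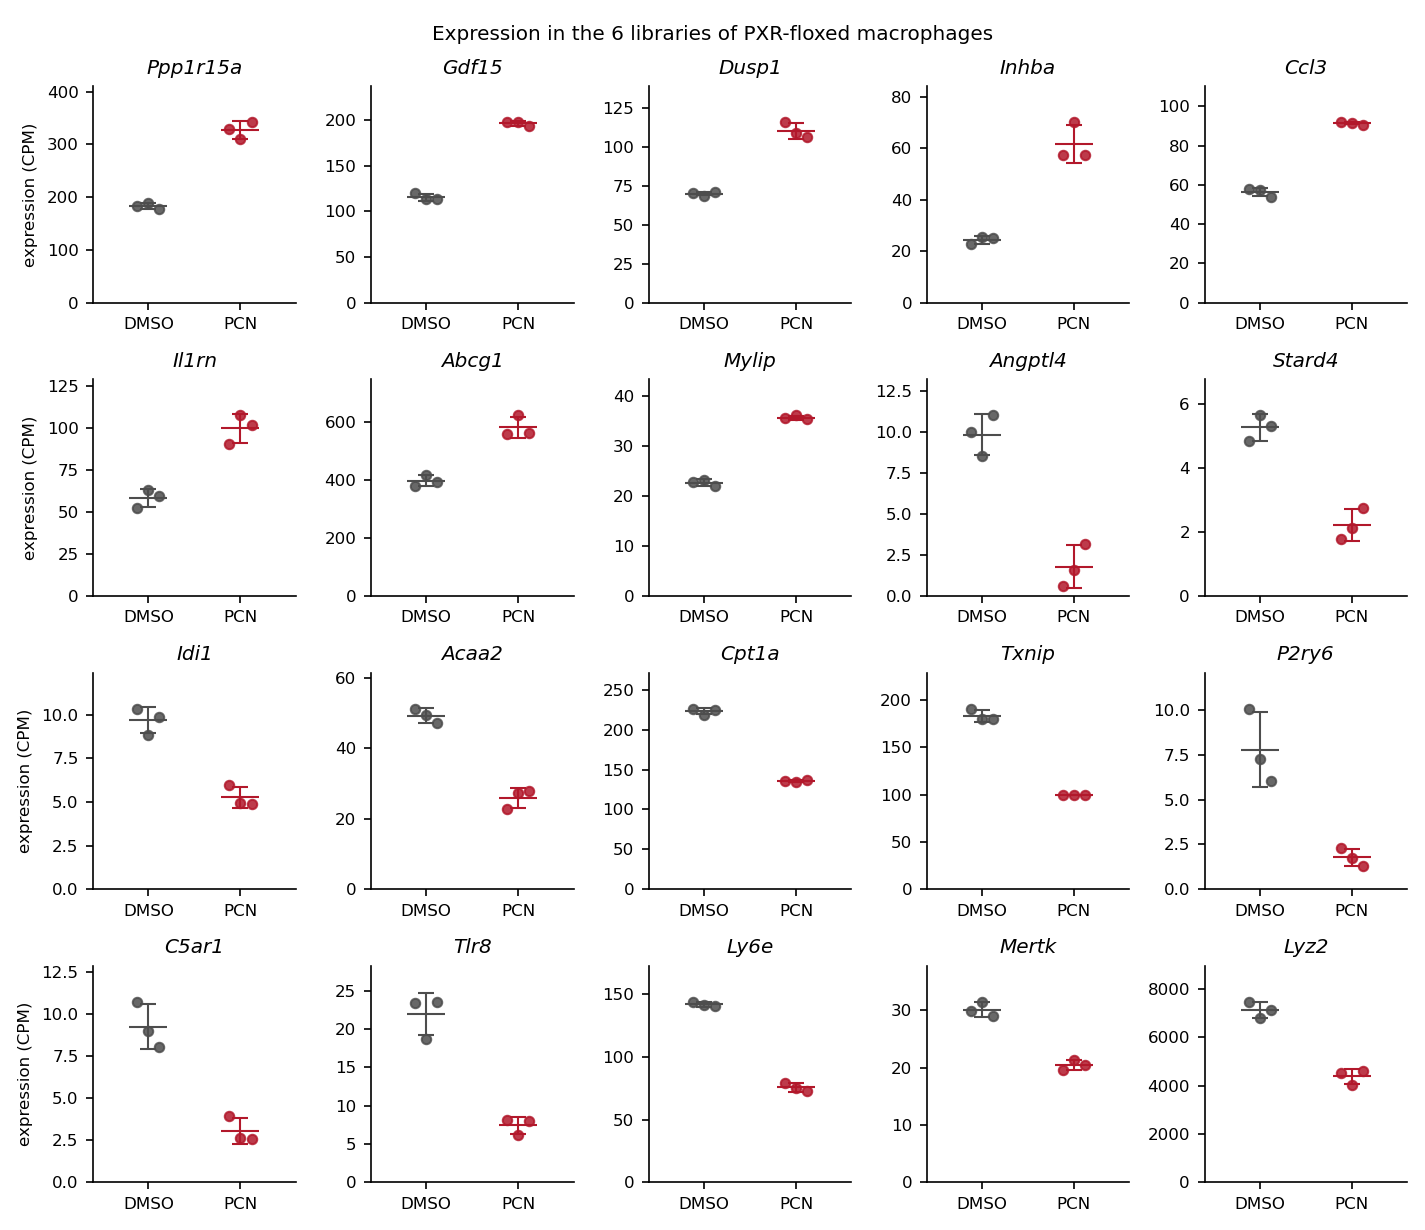
Expression (vertical, CPM, from 0) of 20 genes in the 3 DMSO (grey) and 3 PCN (red) libraries, each dot 1 library, the horizontal line the mean and the bar 1 SD on either side. In every panel the PCN dots lie wholly above or wholly below the DMSO dots, with Inhba rising from 24.5 to 61.7 CPM and Angptl4 falling from 9.85 to 1.79 CPM on average.

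Some microbe sensing, interferon and antigen presentation genes fell. Of 30 tested Toll-like receptor pathway genes 7 fell and 3 rose (4 and 3 in every such fit; median -0.11), with 4 falls without DMSO 2. Tlr8, an endosomal receptor for single-stranded RNA, stood at 23.4, 18.8 and 23.5 CPM under DMSO and at 8.14, 6.13 and 8.01 under PCN (log2 fold change -1.54, SE 0.13, adjusted p = 9.2e-08). Tlr7, of the same group, stood at 52.5, 45.3 and 51.6 and 34.7, 31.1 and 31.4 CPM (log2 fold change -0.60, SE 0.09, adjusted p = 6.4e-05). Tlr1, which senses lipopeptides, stood at 9.27, 10.3 and 9.80 and 5.53, 5.20 and 6.31 CPM (log2 fold change -0.76, SE 0.14, adjusted p = 0.00074). All 3 were lower in every PCN library. Tlr13 also fell, while the signalling genes Irak2 (log2 fold change 0.23, SE 0.04, adjusted p = 0.0009), Traf6 and Ticam1 rose. Of 39 tested interferon-stimulated genes 11 fell and 0 rose (median -0.29), with 7 falls without DMSO 1 or PCN 1 and 5 called in every such fit. Ly6e stood at 144, 141 and 141 CPM under DMSO and at 79.1, 74.9 and 72.7 under PCN (log2 fold change -0.88, SE 0.07, adjusted p = 2.8e-08; chromosome 15, 74955051 to 74959905), with no overlap. Oasl2 (log2 fold change -0.79, SE 0.17, adjusted p = 0.0025), Irf9 (log2 fold change -0.41, SE 0.08, adjusted p = 0.0013), a subunit of the factor that drives these genes, Irf5 (log2 fold change -0.36, SE 0.07, adjusted p = 0.0007) and the guanylate-binding protein gene Gbp7 (log2 fold change -0.57, SE 0.13, adjusted p = 0.0043) also fell.

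Of 16 tested genes of MHC class II presentation 6 fell and 1, Cd40, rose (4 and 1 in every such fit; median -0.44). Cd74, the invariant chain, stood at 246, 229.997 and 227 CPM under DMSO and at 179, 149 and 157 under PCN (log2 fold change -0.51, SE 0.07, adjusted p = 1.9e-05). H2-Eb1 went from 54.5, 45.5 and 49.7 to 36.7, 27.2 and 34.5 CPM (log2 fold change -0.58, SE 0.10, adjusted p = 0.00038) and H2-Aa from 81.9, 58.9 and 67.2 to 46.1, 45.7 and 49.6 (log2 fold change -0.53, SE 0.11, adjusted p = 0.0018), both members of a family of similar genes. Every PCN library was below every DMSO library in these 3. Ifi30, a thiol reductase of antigen processing, fell from 164 ± 12.2 to 112 ± 6.09 CPM (log2 fold change -0.52, SE 0.07, adjusted p = 9.1e-06). B cells and dendritic cells express these genes too. Of 15 tested B cell markers 4 fell, among them Ms4a1, Cd79a and Bank1 (median -0.78), with 0 falls without DMSO 3 or PCN 2 and 1 without DMSO 1, and their summed level ran from 301 to 335 CPM under DMSO and from 285 to 299.998 under PCN. Dendritic cell markers summed to 1381 to 1425 CPM under DMSO and 1361 to 1400.4 under PCN. Of 12 tested, 2 fell and 0 rose (0 and 0 in every such fit, median -0.41), with 9 log2 fold changes below 0 and 3 above. The part of B cells and dendritic cells in the result was not tested. In bulk libraries fewer cells of a type and less RNA per cell cannot be told apart. MHC class I genes were split, with H2-Q4, one of several near-identical genes, at 142 ± 3.10 and 189.8 ± 3.47 CPM (log2 fold change 0.44, SE 0.05, adjusted p = 4.9e-06).

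Of 27 tested macrophage identity genes 10 fell and 0 rose (median -0.20) and 7 to 15 over the alternatives. Lyz2, the lysozyme gene, stood at 7472, 6823 and 7129 CPM under DMSO and at 4512, 4033 and 4631 under PCN (log2 fold change -0.68, SE 0.13, adjusted p = 0.0016), though reads may be shared with a near-identical copy. Mpeg1, a pore-forming protein of phagosomes, stood at 3274, 3259.9 and 3423 and 2259.6, 2248 and 2334 CPM (log2 fold change -0.52, SE 0.05, adjusted p = 1.5e-07). Both were lower in every PCN library. The receptor of the growth factor Csf1, Csf1r, fell from 131 ± 2.46 to 98.2 ± 1.34 CPM (log2 fold change -0.39, SE 0.05, adjusted p = 2.3e-05), the integrin gene Itgam from 299 ± 2.33 to 244 ± 8.15 (log2 fold change -0.27, SE 0.07, adjusted p = 0.0086) and Adgre1 from 125 ± 2.11 to 103 ± 1.74 (log2 fold change -0.25, SE 0.06, adjusted p = 0.004). In all, 7 of these falls were called in every such fit. Apoptotic cell clearance counted 12 falls and 3 rises of 27 (5 and 1 in every such fit; median -0.19). Mertk, a receptor for dying cells, stood at 29.9, 31.5 and 28.9 CPM under DMSO and at 19.6, 21.4 and 20.5 under PCN (log2 fold change -0.53, SE 0.10, adjusted p = 0.0008), and its bridging ligand Pros1 at 21.1, 18.4 and 16.7 and 12.4, 11.5 and 13.98 CPM (log2 fold change -0.55, SE 0.10, adjusted p = 0.00054). The groups were apart in both. The engulfment gene Elmo2 (log2 fold change -0.42, SE 0.06, adjusted p = 2.5e-05) and the integrin gene Itgb5 (log2 fold change -0.32, SE 0.05, adjusted p = 0.00015) also fell, and Itgb3 rose from 32.8 ± 1.87 to 48.5 ± 2.93 CPM (log2 fold change 0.59, SE 0.11, adjusted p = 0.00091). Without DMSO 1, DMSO 3 or PCN 2 the rise of Itgb3 alone was left.

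Some receptors for complement, antibodies and sugars fell. C5ar1, the C5a receptor, stood at 10.7, 8.99 and 8.04 CPM under DMSO and at 3.96, 2.62 and 2.60 under PCN (log2 fold change -1.57, SE 0.19, adjusted p = 7.1e-06; chromosome 7, 16246743 to 16259540), with every PCN library below every DMSO library. Complement genes counted 4 falls and 0 rises of 24 tested, among them also Itgam and Itgb2 (log2 fold change -0.23, SE 0.04, adjusted p = 0.00094). Fc receptor and lectin genes counted 8 falls and 2 rises of 32 (4 and 1 in every such fit), among the falls Fcgr4 from 26.5 ± 0.839 to 14.7 ± 1.15 CPM (log2 fold change -0.83, SE 0.11, adjusted p = 2.8e-05) and Clec4a1 (log2 fold change -0.84, SE 0.13, adjusted p = 0.00015) and Clec4a3 (log2 fold change -0.52, SE 0.09, adjusted p = 0.00028), which resemble each other. Clec4e, a sensor of mycobacterial glycolipid, went up, from 229.6, 231 and 226 to 339, 347 and 379 CPM (log2 fold change 0.66, SE 0.08, adjusted p = 8.1e-06), with no overlap. The other rise was lost whichever library was left out. Clec10a, a lectin of alternatively activated macrophages, fell from 15.9 ± 0.866 to 7.54 ± 0.116 CPM (log2 fold change -1.06, SE 0.13, adjusted p = 8.5e-06). The 23 tested genes of alternative activation went both ways, with 4 rises and 2 falls (2 and 1 in every such fit, median -0.01). Cd274 and Tgm2 were among these rises. Integrin and adhesion genes counted 12 falls and 3 rises of 29 (7 and 2 in every such fit), the falls including Selplg (log2 fold change -0.44, SE 0.06, adjusted p = 3.2e-05). Of 9 tested neutrophil markers 3 were called falls and 0 rises, while 5 log2 fold changes were below 0 and 4 above, up to 2.78. The falls were Mmp8 (log2 fold change -0.70, SE 0.10, adjusted p = 3e-05), Ceacam1 (log2 fold change -0.46, SE 0.07, adjusted p = 0.00016) and Csf3r (call lost without PCN 3, adjusted p = 0.060). The summed level of the neutrophil markers was 196 to 202 CPM under DMSO and 151 to 160.1 under PCN, and the defining marker Ly6g was at 0. Monocyte markers summed to 391 to 393 and 339 to 347 CPM, with 3 of 12 falling, and 1 without DMSO 3, PCN 2 or PCN 3. The falls were F13a1 (log2 fold change -0.55, SE 0.09, adjusted p = 0.00025), Ccr2 (adjusted p = 0.04) and Cx3cr1 (adjusted p = 0.048). The call of Cx3cr1 was lost whichever floxed library was left out, and that of Ccr2 without any of them but DMSO 1. The part of the neutrophil and monocyte markers in the result was not tested.

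Some receptors and regulators of G protein signalling fell. P2ry6, a receptor for UDP, stood at 10.1, 7.30 and 6.03 CPM under DMSO and at 2.29, 1.74 and 1.32 under PCN (log2 fold change -2.10, SE 0.22, adjusted p = 1.4e-06; chromosome 7, 100937630 to 100974649). P2ry2, a receptor for ATP and UTP, stood at 37.1, 37.7 and 38.2 and 50.6, 48.2 and 47.9 CPM (log2 fold change 0.40, SE 0.07, adjusted p = 0.00022). The PCN libraries were all lower for the first and all higher for the second. Purinergic genes counted 4 falls and 1 rise of 18 (1 and 1 in every such fit), with 2 falls without DMSO 3, PCN 2 or PCN 3. Cyclic AMP and G protein regulators counted 7 falls and 1 rise of 35 (4 and 1 in every such fit), among the falls Rgs18 (log2 fold change -1.16, SE 0.21, adjusted p = 0.00062), Rgs14 (log2 fold change -0.83, SE 0.14, adjusted p = 0.00038) and the adenylyl cyclase gene Adcy7 (log2 fold change -0.56, SE 0.09, adjusted p = 8e-05). Of 27 tested genes of potassium and calcium channels, calcium pumps and related proteins 6 fell and 0 rose, all 6 in every such fit. Kctd12b, of a family that binds GABA-B receptors and tunes G protein signals, stood at 8.004, 7.88 and 9.54 CPM under DMSO and at 2.02, 2.43 and 2.77 under PCN (log2 fold change -1.80, SE 0.15, adjusted p = 6.4e-08), and its relative Kctd12 at 57.2, 53.7 and 59.8 and 33.2, 33.3 and 33.1 CPM (log2 fold change -0.76, SE 0.09, adjusted p = 8.1e-06). Both sets of PCN libraries were below the DMSO libraries. The calcium pump gene Atp2a3 (log2 fold change -0.60, SE 0.07, adjusted p = 7e-06) and the potassium channel gene Kcnn4 (log2 fold change -0.51, SE 0.09, adjusted p = 0.00047) fell with them.

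Mitosis genes were low in these cells, and some were lower under PCN. The 32 tested mitosis genes counted 5 falls and 0 rises (median -0.36), with 2 to 5 falls over the alternatives and 3 in every such fit. Mki67, the proliferation marker, stood at 10.3, 9.32 and 9.45 CPM under DMSO and at 5.91, 6.50 and 6.28 under PCN (log2 fold change -0.61, SE 0.14, adjusted p = 0.0037), and Racgap1 at 6.48, 6.62 and 6.28 and 3.75, 3.63 and 4.89 CPM (log2 fold change -0.64, SE 0.15, adjusted p = 0.0068), both without overlap. The replication regulator E2f2 fell from 7.54 ± 0.998 to 3.50 ± 0.412 CPM (log2 fold change -1.08, SE 0.18, adjusted p = 0.00029). The 32 tested DNA replication genes counted 4 falls and 0 rises (1 and 0 in every such fit, median -0.02). The share called, 12.5%, was near the 13.8% over all tested genes. Of 33 tested cell cycle arrest and survival genes 6 rose and 3 fell, where 6.82% of all genes rose (5 and 2 in every such fit), among them the p53 targets Cdkn1a (log2 fold change 0.38, SE 0.05, adjusted p = 3.8e-05), Mdm2 (log2 fold change 0.43, SE 0.06, adjusted p = 3.3e-05) and Pmaip1 (log2 fold change 0.61, SE 0.09, adjusted p = 3.5e-05) and the survival gene Bcl2l1 (log2 fold change 0.47, SE 0.06, adjusted p = 6.6e-06).

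Autophagy genes counted 6 rises and 1 fall of 36 tested (4 and 0 in every such fit; median 0.07). Sqstm1, the cargo receptor p62, rose from 1708 ± 40.2 to 2042 ± 47.4 CPM (log2 fold change 0.28, SE 0.05, adjusted p = 0.00076), and Gabarapl1 (log2 fold change 0.38, SE 0.05, adjusted p = 4.8e-05) and Optn (log2 fold change 0.44, SE 0.06, adjusted p = 3.7e-05) rose with it. Lysosome genes were mixed, with 9 rises and 6 falls of 44 (3 and 4 in every such fit; median 0.00), and 3 rises without DMSO 1, 4 without DMSO 3 and 5 without PCN 2 or PCN 3. The proton pump subunit gene Atp6v0d1 rose (log2 fold change 0.30, SE 0.06, adjusted p = 0.0012), and the hydrolase genes Gusb (log2 fold change -0.24, SE 0.05, adjusted p = 0.0008) and Ids (log2 fold change -0.47, SE 0.09, adjusted p = 0.00062) fell with Lipa. Solute carriers counted 9 rises and 3 falls of 36 (6 and 2 in every such fit). The creatine carrier gene Slc6a8 rose from 632 ± 11.6 to 829.7 ± 48.1 CPM (log2 fold change 0.42, SE 0.07, adjusted p = 0.00014), and Slc43a2, an amino acid carrier, fell from 122 ± 1.23 to 69.7 ± 5.14 (log2 fold change -0.78, SE 0.11, adjusted p = 4.2e-05). Genes of NRF2 and glutathione counted 3 rises and 7 falls of 38 (2 and 5 in every such fit), with the pentose phosphate genes Pgd (log2 fold change -0.45, SE 0.08, adjusted p = 0.00053) and G6pdx (log2 fold change -0.43, SE 0.06, adjusted p = 4.9e-05) among the falls. All 13 genes encoded in mitochondrial DNA had log2 fold changes below 0, and 3 were called falls, mt-Co3 (log2 fold change -0.56, SE 0.10, adjusted p = 0.00053), mt-Nd6 (log2 fold change -0.34, SE 0.08, adjusted p = 0.0044) and mt-Nd5, the last losing its call without DMSO 2 (adjusted p = 0.084), PCN 1 (0.056) or PCN 3 (0.083). Mitochondrial genes took 1.81% to 2.02% of the counts under DMSO and 1.46% to 1.72% under PCN. Of 43 nuclear genes of oxidative phosphorylation 1, Atp5a1, fell.

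**Figure D3:**
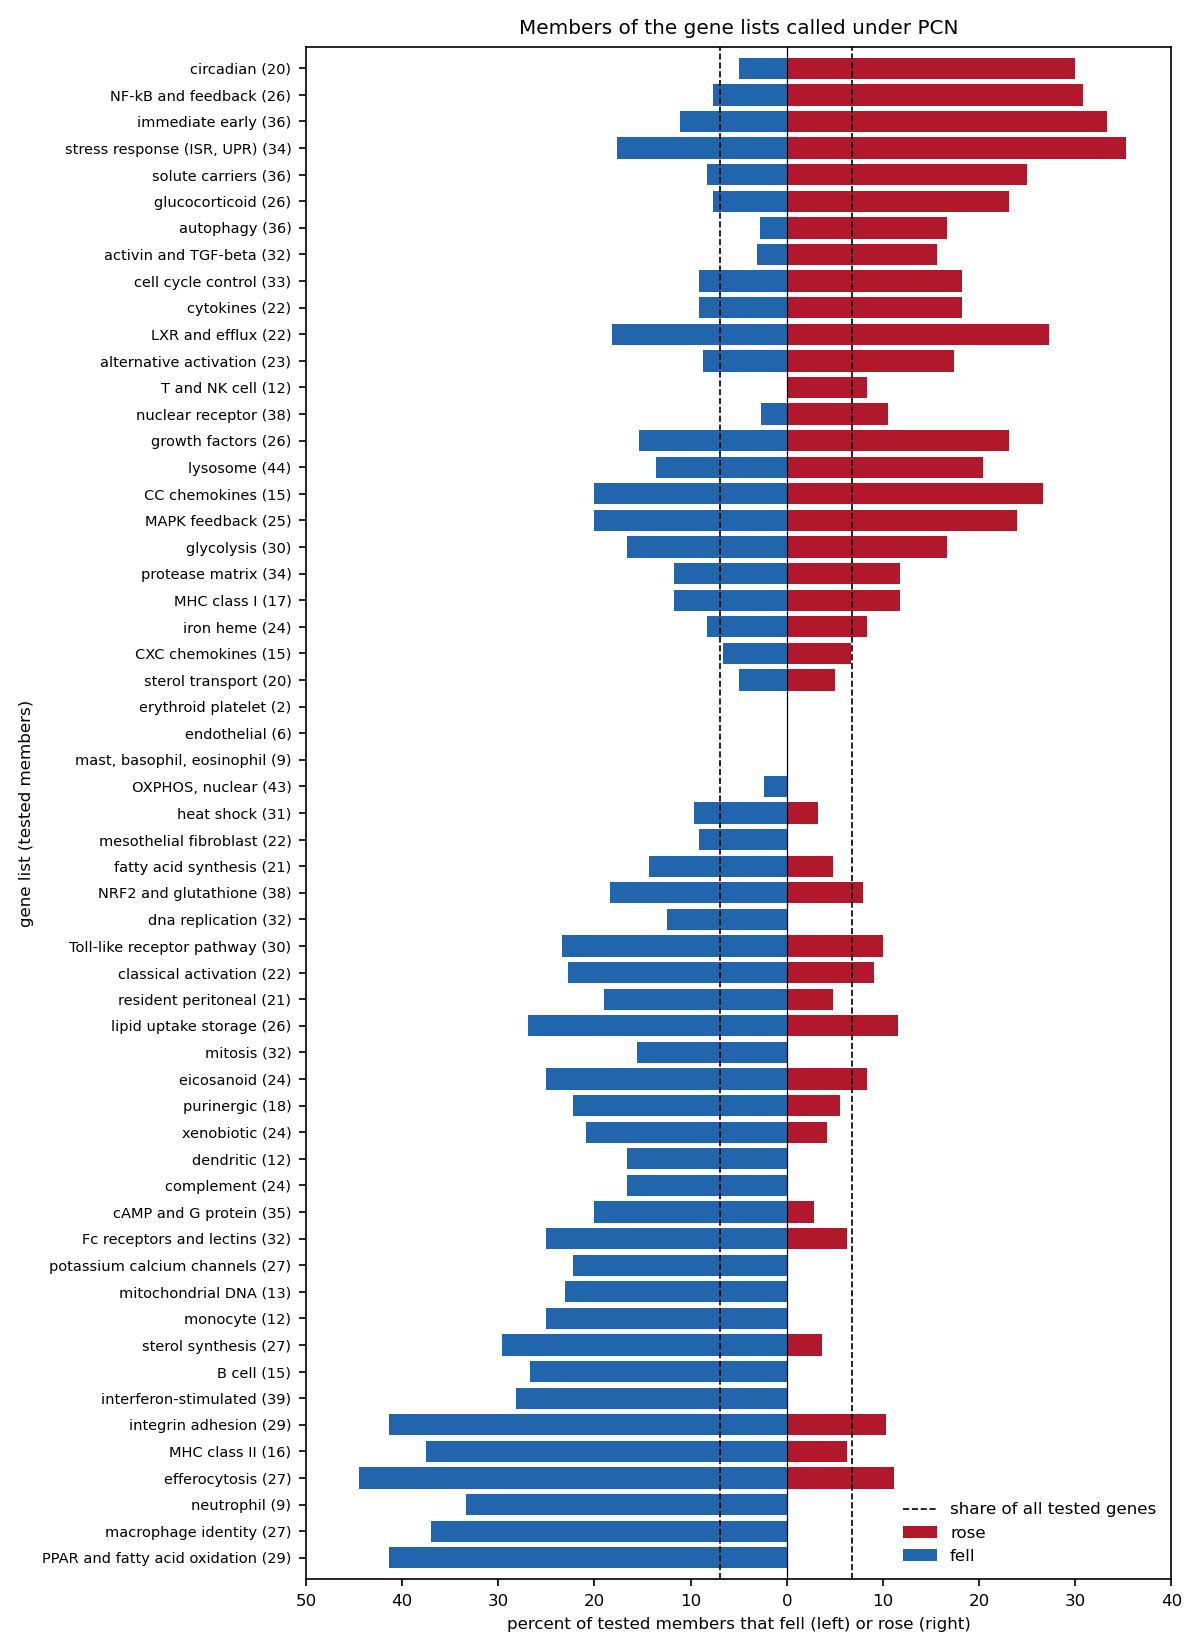
Share of the tested members of each of 57 gene lists (rows, number tested in parentheses) that rose (red, to the right) or fell (blue, to the left) under PCN, in percent, with dashed lines at the shares over all tested genes, 6.82% and 6.98%. Stress response, immediate-early, NF-κB feedback and clock lists reach furthest to the right, and efferocytosis, PPAR and fatty acid oxidation and integrin lists furthest to the left.

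Other cells of the peritoneal cavity were followed by their markers. Mesothelial and fibroblast markers summed to 259.6 to 269 CPM under DMSO and 213 to 232 under PCN, and 2 of 22 tested fell, 1 without DMSO 1 or PCN 3, 6 without DMSO 3 and 5 without PCN 2. Of the 22 log2 fold changes, 21 were below 0 and 1 above (median -0.20). Wt1, the mesothelial transcription factor, was called (log2 fold change -0.65, SE 0.14, adjusted p = 0.0035), but not from the 6 libraries alone (adjusted p = 0.063). The matrix gene Ctgf, which such cells also express, rose from 2.76 ± 0.791 to 5.59 ± 1.06 CPM (log2 fold change 1.04, SE 0.18, adjusted p = 0.00046), and the matrix metalloproteinase inhibitor gene Timp2 fell from 204 ± 3.48 to 149 ± 2.26 (log2 fold change -0.43, SE 0.05, adjusted p = 2.4e-06). Of 12 tested T and NK cell markers 0 fell and 1 rose, Il7r (log2 fold change 0.31, SE 0.06, adjusted p = 0.0021), and the median was -0.10. Il7r stood at 959.6 ± 28.6 CPM under DMSO, where all listed T and NK cell markers summed to 970 to 1026 CPM. Il7r thus made up most of that sum, and the other markers were low. Mast cell, basophil and eosinophil markers, endothelial markers and erythroid or platelet markers counted 0 rises and 0 falls of 9, 6 and 2 tested, and Epx, Ear1, Cldn5 and Hbb-bt were at 0 in all 6 libraries. Of 21 markers of resident large peritoneal macrophages 4 fell, among them Itga6 (log2 fold change -0.45, SE 0.10, adjusted p = 0.0033) and Cd9 (log2 fold change -0.38, SE 0.08, adjusted p = 0.0025), and the 1 rise was lost whichever library was left out. Their part in the results above was not tested.

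The same treatment in PXRΔMyeLDLR-/- macrophages called fewer genes. There 279 genes (2.08%) were called, of which 242 were also called in floxed cells, 13.1% of the floxed calls and 86.7% of the others, all in the same direction. Of the 1851 genes called in floxed cells 1698 (91.7%) had the same sign in myeloid PXR-deficient cells. Among those 1851 the median ratio of the deficient to the floxed effect was 0.33, and among the 279 genes called in deficient cells the median ratio of the floxed to the deficient effect was 1.89, with 241 larger in floxed cells. Since each set was chosen by its own contrast, its ratio is pulled away from 1 by the choice. The test of the difference itself, the interaction term, called 190 genes (1.42%), and 42 without DMSO 1, 104 without DMSO 2, 50 without DMSO 3, 105 without PCN 1, 62 without PCN 2 and 93 without PCN 3. Of these 190 genes 189 were also called in floxed cells. There were 162 with the same sign and a larger effect there and 27 with opposite signs in the genotypes. Being called in floxed cells too favours a larger effect there, so these counts are not a test of the genotypes. Gdf15 had a log2 fold change of 0.79 in floxed and 0.15 in deficient cells (difference -0.64, adjusted p = 5.2e-05), Txnip -0.86 and -0.25 (difference 0.61, adjusted p = 5.2e-05) and Ly6e -0.88 and -0.20 (difference 0.68, adjusted p = 0.00013). Shtn1, a cytoskeleton gene, and Esyt1, a lipid transfer protein of membrane contacts, fell by 0.72 and 0.66 on the log2 scale in floxed cells, and the differences were 0.56 (adjusted p = 5.2e-05) and 0.49 (adjusted p = 0.00032). Ppp1r15a was called in both genotypes, at 0.86 and 0.34 (difference -0.52, adjusted p = 0.00044).

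No difference between the genotypes was called among the 27 tested sterol synthesis genes or the 22 LXR and efflux genes. Over all tested genes the share was 1.42%. Idi1 had log2 fold changes of -0.86 and -0.88 (difference -0.02, SE 0.17, adjusted p = 0.98) and Abcg1 0.57 and 0.47 (difference -0.10, SE 0.09, adjusted p = 0.7). Of the sterol synthesis list 11 of 27 fell in deficient cells, with 6 libraries a treatment, and 8 in floxed cells, with 3. Genotype and sex cannot be told apart here: the Y-linked gene Ddx3y was at 46.2 ± 3.67 and 57.9 ± 4.46 CPM in floxed cells under DMSO and PCN, and at means of 0.0181 and 0.232 CPM in deficient cells. Within floxed cells Ddx3y was not called by edgeR with all 18 libraries (log2 fold change 0.35, SE 0.20, adjusted p = 0.3). It was called a rise with limma-voom (adjusted p = 0.030) and from the 6 libraries alone (adjusted p = 0.0042).

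**Figure D4:**
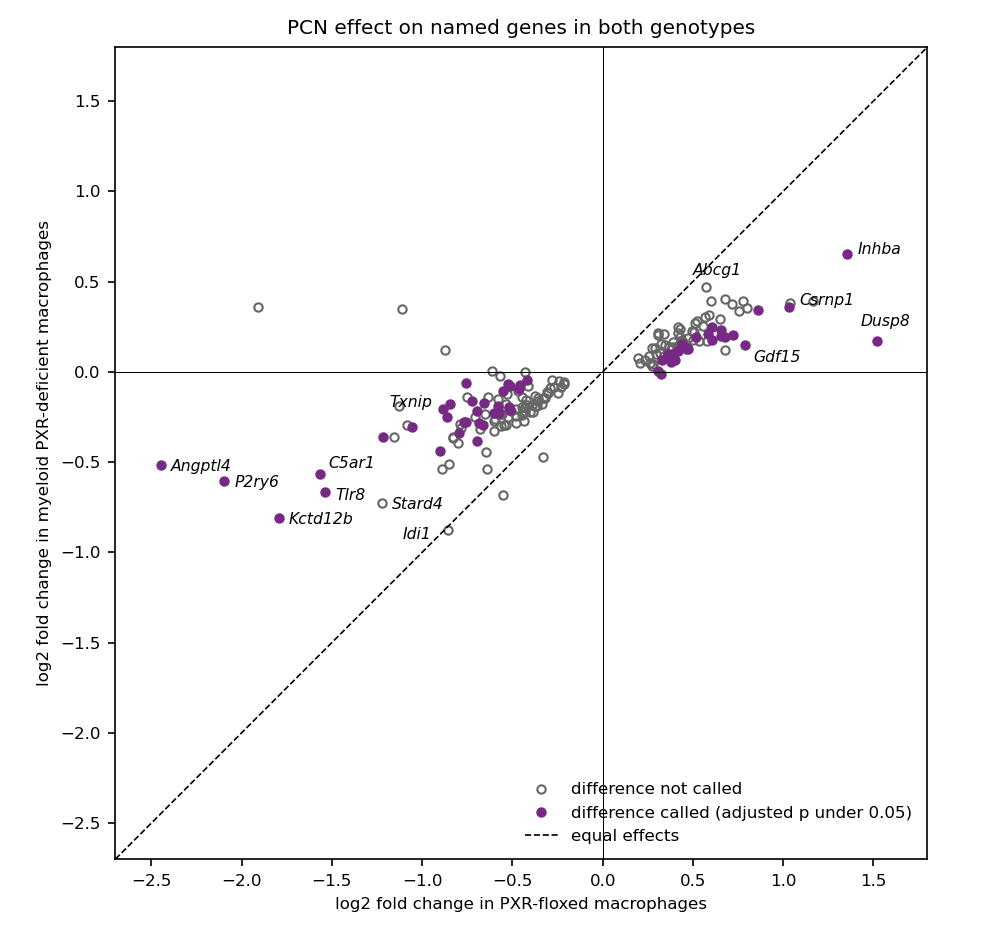
Log2 fold change under PCN in myeloid PXR-deficient macrophages (vertical) against that in PXR-floxed macrophages (horizontal) for the genes named in the text that were called in floxed cells, with filled symbols where the interaction term was called and a dashed line of equal effects. Idi1 lies on the dashed line, while Gdf15, Txnip, C5ar1 and Tlr8 lie nearer to 0 on the vertical than on the horizontal axis. Map2k6 alone lies beyond the axis.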

How the data were processed

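Total RNA of cultured peritoneal macrophages was sequenced with standard Illumina libraries, per the labels' protocols. The authors deposited 1 table of expected counts per gene for all 18 libraries, estimated counts that need not be whole. The submitters' processing notes name build mm10. For the aligner, the quantifier, the annotation and strandedness, the tool or setting is not given in the sources used here. A gene whose reads are shared with a near-identical copy or an antisense gene is therefore uncertain. Another 26 symbols, altered to dates, stayed in the fit and are not named.

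Expected counts were rounded to whole numbers. edgeR 4.0.16 in R 4.3.3 fitted all 18 libraries in 4 groups (TMM scaling, filterByExpr, robust quasi-likelihood test, biological coefficient of variation 9.69%), with PCN against DMSO in floxed cells as the contrast and Benjamini-Hochberg adjustment over 13409 genes at 0.05. Each SE was obtained as the absolute log2 fold change over the root of the F statistic. CPM is per 1000000 counts of the unscaled library total, and a fitted log2 fold change also reflects the TMM factors. With 3 libraries against 3, an exact permutation test of 1 gene cannot go below p = 0.1, so gene tests come from the fit. On simulated counts for 13232 genes of this comparison, 79% of 1.5-fold and 85% of 2-fold changes were recovered, and 3.53% of calls were false. There 100 genes were changed at each fold, all with a DMSO mean of at least 1 CPM. Libraries varied independently by the fitted dispersion. Departures shared by many genes, such as that of PCN 2 with exon length, were not simulated. These rates therefore need not hold for the calls reported here.

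The libraries were chosen by label. The members and the 57 gene lists (1393 genes, 1285 tested, 3 not in the table) were chosen with earlier results of these data known. Named genes were the 10 largest rises and 10 largest falls among called genes with at least 1 CPM and no overlap, the 10 of smallest p in each direction, up to 4 called members per list by p, a set of genes named whatever their result, and up to 6 by the test of the difference between genotypes. Some were left out for space, and some are not reported here. Atf5, Mthfd2, Csnk1e, Ticam1 and the other list members named without belonging to these groups were chosen after their values were seen, as were the motifs and the promoters shown. The alternatives changed the scaling to RLE or to upper-quartile, dropped the filter or replaced it by one of 1 CPM in at least 3 libraries of 1 group, changed the test to DESeq2 1.42.0 or limma-voom (limma 3.58.1), fitted the 6 libraries alone, or left out each of these 6. Promoters are from RefSeq (GRCm38.p6). Gene coordinates are from GENCODE on GRCm38, matched by symbol for 98.7% of tested genes.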

Additional observations from a re-analysis of the deposited data

Results flagged for a closer look

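For 58 of the genes named here the PCN effect differed between the genotypes by the interaction term of edgeR's quasi-likelihood test, at adjusted p from 5.2e-05 to 0.049. The values in parentheses are the log2 fold change in myeloid PXR-deficient macrophages minus that in floxed macrophages. For 57 genes the effect had the same sign in both genotypes and was larger in floxed cells. Over all 189 genes with such a difference that were called in floxed cells, 162 were of that kind and 27 had opposite signs. Choosing genes by both calls favours a larger effect in floxed cells, so these counts are not a test of the genotypes. Vegfa (-0.33) rose in floxed cells and had a log2 fold change of -0.01 in deficient cells, and its difference was called only with all 6 floxed libraries in the fit.

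The difference was called whichever floxed library was left out for 20 genes. Those that fell in floxed cells were P2ry6 (1.49), Kctd12b (0.98), Tlr8 (0.87), Ly6e (0.68), Txnip (0.61), Shtn1 (0.56), Esyt1 (0.49), Nfam1 (0.49), Lsp1 (0.46), Hspa8 (0.40), Ugt1a7c (0.39), Mpeg1 (0.32) and Lipa (0.30). Those that rose were Csrnp1 (-0.67), Gdf15 (-0.64), Ccl3 (-0.52), Ppp1r15a (-0.52), Dusp1 (-0.48), Rhov (-0.46) and Pi4k2a (-0.35). They hold the receptors for UDP and for single-stranded RNA and early and stress response genes.

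For the other 38 genes the call of the difference was lost without at least 1 floxed library. The largest among those that fell in floxed cells were Angptl4 (1.93), C5ar1 (1.00), Cysltr1 (0.86), Clec10a (0.75), Tlr1 (0.70) and Clec4a1 (0.66). Values between 0.35 and 0.48 were found for Mmp8 (0.48), Kctd12 (0.48), Acaa2 (0.46), Clec4a3 (0.46), F13a1 (0.45), Cd74 (0.44), Ceacam1 (0.39), Abcb1b (0.37), Atp2a3 (0.37), Psat1 (0.37), Ucp2 (0.37) and Pla2g7 (0.35), and a smaller one for Cpt1a (0.31). Among genes that rose, Dusp8 (-1.35) and Inhba (-0.70) had the largest differences, followed by Pmaip1 (-0.43), Clec4e (-0.43), Plau (-0.37) and Mreg (-0.36). The others were Bcl2l1 (-0.34), P2ry2 (-0.34), Atf3 (-0.32), Gabarapl1 (-0.32), Rxrb (-0.31), Slc11a2 (-0.30), Tgm2 (-0.29), Hk3 (-0.29), H2-Q4 (-0.28), Trib3 (-0.26), Sgk1 (-0.26) and Slc3a2 (-0.26). As for Vegfa, the difference of many was called only with all 6 floxed libraries. Of the falls these were Cysltr1, Mmp8, Kctd12, F13a1, Ceacam1, Abcb1b, Atp2a3 and Cpt1a. Of the rises they were Pmaip1, P2ry2, Rxrb, Slc11a2, Trib3, Sgk1 and Slc3a2. Acaa2, C5ar1, Clec4a1, Clec4a3, Pla2g7, Tlr1, Clec4e, Dusp8, H2-Q4, Mreg and Plau kept it in only 1 fit without a library. The floxed group has 3 libraries a treatment and the deficient group 6, and genotype and sex cannot be told apart in these differences.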

How the results depend on the processing

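The 1851 called genes ranged from 1201 to 1437 when 1 floxed library was left out, the 915 rises from 522 to 699 and the 936 falls from 679 to 774. The 190 genes whose effect differed between genotypes fell to 42 to 105 without 1 library and rose to 426 with DESeq2. RLE scaling, upper-quartile scaling, no filter, the stricter filter, limma-voom and the 6 libraries fitted alone kept the counts of calls, rises and falls within 1.5 times, as DESeq2 did for these 3 counts. Upper-quartile scaling moved the median log2 fold change of all genes from 0.01 to -0.02 and the share of rises among the calls from 49.4% to 38.2%. The cause was not tested, beyond the smaller number of libraries when 1 is left out. Of the 205 tested genes named here, 188 were called, 174 of them in all 13 alternatives, and 0 of those called changed direction in any. Map2k6 was called in all 11 that gave it a value, and the other 13 lost their call in at least 1. Ddx3y, Sqle and Srebf2, not called, were called in at least 1. No paired analysis was possible because the labels give no replicate numbers that groups share. Depth limits genes near the floor of 0.109 to 0.124 CPM, such as Nr1i2 and Map2k6, and 3 libraries a group limit the detection of small folds.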

Other observations

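Several genes outside the groups described in the report also moved. The small GTPase gene Rhov stood at 67.8, 64.9 and 66.4 CPM under DMSO and at 100.3, 105 and 103 under PCN (log2 fold change 0.66, SE 0.05, adjusted p = 6.4e-08), and Mreg, which acts in vesicle transport, at 81.4, 82.2 and 75.6 and 119.5, 118 and 121 CPM (log2 fold change 0.61, SE 0.06, adjusted p = 6.7e-07). Pi4k2a, a lipid kinase of endosomes, rose from 251 ± 9.91 to 344 ± 10.7 CPM (log2 fold change 0.48, SE 0.05, adjusted p = 6.7e-07), and Cd274, which encodes the checkpoint ligand PD-L1, from 349.9 ± 12.3 to 460.2 ± 14.4 (log2 fold change 0.42, SE 0.07, adjusted p = 0.00035). Slc11a2, an iron transporter, rose from 115 ± 3.46 to 151 ± 5.51 CPM (log2 fold change 0.42, SE 0.06, adjusted p = 3e-05). In these 5 genes every PCN library was above every DMSO library. Lsp1, an actin-binding protein of leukocytes, stood at 145, 139.8 and 144 CPM under DMSO and at 83.6, 76.6 and 83.2 under PCN (log2 fold change -0.80, SE 0.06, adjusted p = 3e-08), and Nfam1, a membrane activator of NFAT signalling, at 118, 111 and 113 and 71.3, 60.7 and 66.5 CPM (log2 fold change -0.77, SE 0.06, adjusted p = 5.9e-08). The NADPH oxidase subunit gene Ncf1 (log2 fold change -0.60, SE 0.07, adjusted p = 4e-06) fell as well. In these 3 genes every PCN library was below every DMSO library.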
